A study of Homo sapiens with 2 samples.

Results

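The transcripts of 10 genes for glycolytic enzymes were followed in 2 RNA-seq libraries of HEK293 Flp-In T-Rex cells, made from total RNA after removal of rRNA. The genes GPI, PFKL, PFKM, PFKP, ALDOA, GAPDH, PGK1, ENO1, PKM and LDHA were taken by name, and every listed transcript that GENCODE v44 assigns to them was used, which gave 175 of the 206696 transcripts in the tables and 10 of 59026 matched genes. HEK293 is a long-established line from human embryonic kidney, and Flp-In T-Rex cells hold a defined integration site for tetracycline-inducible transgenes. The cells were untreated and had been grown in high-glucose DMEM with foetal calf serum. The 2 libraries form 1 group, replicate 1 and replicate 2, with 25158962 and 27143860 estimated counts. Whether they came from separate cultures is not given in the sources used here, so the spread between them may be technical. The study made them to learn which METTL8 transcripts the cells express, and no glycolytic gene was perturbed.

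Glycolysis converts glucose to pyruvate in the cytosol, and lactate dehydrogenase can then reduce pyruvate to lactate while regenerating NAD+. The reactions of hexokinase, phosphofructokinase and pyruvate kinase are essentially irreversible and regulated, whereas the enzymes between them work close to equilibrium. Most steps are served by several paralogous genes with tissue-biased expression, and PKM yields different enzymes from mutually exclusive exons. Proliferating cells are known for high glycolytic flux and for the M2 form of pyruvate kinase.

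The PKM exons are shown because the PKM result rests on them. Exon 9 codes for the stretch found only in pyruvate kinase M1 and exon 10 for that found only in M2. Each has 167 bases, and 105 of these bases (62.9%) are identical when the exons are laid side by side. The sequences run 5′ to 3′ on the coding strand, which is the minus strand of GRCh38, at chr15:72203022-72203188 for exon 9 and chr15:72202454-72202620 for exon 10. Capitals mark the 62 positions at which the exons differ.
PKM exon 9: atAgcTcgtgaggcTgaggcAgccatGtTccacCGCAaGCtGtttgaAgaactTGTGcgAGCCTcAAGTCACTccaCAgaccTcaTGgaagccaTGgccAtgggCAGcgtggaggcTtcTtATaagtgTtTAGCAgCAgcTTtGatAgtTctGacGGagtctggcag
PKM exon 10: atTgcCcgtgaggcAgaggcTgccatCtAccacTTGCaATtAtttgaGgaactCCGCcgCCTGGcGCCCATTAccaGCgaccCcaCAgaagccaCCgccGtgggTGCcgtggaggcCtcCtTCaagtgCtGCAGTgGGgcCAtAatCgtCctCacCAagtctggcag

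Values come in 2 scales. A normalised count is the authors' estimated count of a transcript divided by the size factor of its library, and it serves to compare libraries and to give transcript shares within a gene. A length-normalised level is that count divided by the GENCODE v44 length of the transcript, summed per gene and scaled to 1000000 per library, and it serves to compare genes. Genes were said to differ beyond the spread when their order was shared by both libraries and their means lay further apart than the sum of their SDs. With 2 libraries a two-sided sign-flip test cannot give a p below 0.5, so no p is reported. All levels are averages over the culture, in which fewer expressing cells and less RNA per cell cannot be told apart.

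The labelled cell line was compared with a short marker list. Of 4 genes chosen as HEK293 markers, LIN28B held 2267 and 1697 normalised counts in replicates 1 and 2 and NEFL held 1868 and 1848, but PAX2 held only 33.9 and 50.1 and NEFM 14.5 and 18.7. Of 5 genes chosen for other cell types, ALB, PTPRC, MYH7 and INS were listed at 0 in both libraries, and HBB held 179.0 and 181.8. From counting error alone, a gene at 0 can reach 0.119 estimated counts per 1000000 in replicate 1 and 0.111 in replicate 2. These values come from the 3 counts that a 0 allows.

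All 10 genes were abundant and differed little between the libraries. Together they held 1.04% ± 0.0321 of all estimated counts (SD, n = 2). None of the 10 differed by more than 1.5-fold between the libraries in normalised counts, and 17.4% of the 19110 genes with a mean of at least 10 did. Each of the 10 had at least 2499 normalised counts per library. The 19110 genes were not matched to them for counts, so the 2 shares cannot be compared as a trait of glycolytic genes. The larger value was 1.01 to 1.23 times the smaller one, with 5 genes higher in each library, and the median log2 difference (replicate 2 minus replicate 1) was 0.02 for the 10 genes against -0.06 over all those genes. The lowest of the 10, PFKM, had a higher length-normalised level than 91.8% of the 26370 genes that reached 1 normalised count in each library. The median level was 422 for the 10 genes and 1.87 for those 26370.

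GPI, PFKL, PFKM and PFKP form the upper part of the pathway and had the lowest levels of the 10. GPI (ENSG00000105220; chromosome 19, 34359480 to 34402413), which turns glucose-6-phosphate into fructose-6-phosphate, held 18797.5 and 20292 normalised counts in replicates 1 and 2. Its length-normalised level was 187 and 229, a mean of 208 ± 29.6 (SD, n = 2). The GPI level rests on a GENCODE v44 model of 4125 nt whose version differs from the one listed in the tables, so the length used may not be the one the authors counted on.

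Phosphofructokinase commits fructose-6-phosphate to glycolysis, and its subunits from PFKL, PFKM and PFKP assemble into homo- and heterotetramers. PFKP (ENSG00000067057; chromosome 10, 3066333 to 3137718), the platelet type, held 8944 and 9433 normalised counts and a level of 127 and 137. PFKL (ENSG00000141959; chromosome 21, 44300051 to 44327376), the liver type, held 5451 and 6604 normalised counts and a level of 67.5 and 83.1. PFKM (ENSG00000152556; chromosome 12, 48105139 to 48146404), the muscle type, held 2686 and 2499 normalised counts and a level of 37.4 and 34.7. PFKP was thus the highest and PFKM the lowest of the 3 in each library.

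As shares of the summed phosphofructokinase level, PFKP made up 54.7% and 53.7%, on average 54.2% ± 0.703 (SD, n = 2). PFKL made up 30.9% ± 2.48 and PFKM 14.9% ± 1.77. The log2 ratio of levels was 0.81 ± 0.13 for PFKP to PFKL, 1.87 ± 0.15 for PFKP to PFKM and 1.06 ± 0.29 for PFKL to PFKM (SD, n = 2 each), and all 3 differences exceeded the spread. PFKL was the member of the family that varied most between the libraries, 1.21-fold higher in replicate 2.

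ALDOA (ENSG00000149925; chromosome 16, 30064164 to 30070457) codes for the aldolase that splits fructose-1,6-bisphosphate into a pair of triose phosphates. It held 24651.5 and 26485 normalised counts. Its level of 1000.2 and 1001 was nearly the same in both libraries. ALDOC, the brain-enriched aldolase, had a level of 17.1 and 19.1. ALDOA made up 98.2% ± 0.140 of the aldolase level (SD, n = 2), a 55.4-fold excess over ALDOC that fell to 28.3-fold when the sums were divided by the coding length of the canonical transcripts.

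GAPDH (ENSG00000111640; chromosome 12, 6534512 to 6538374), the dehydrogenase that links triose oxidation to NAD+ reduction, was the most abundant of the 10. Its normalised counts were 79556 and 77690.1, and its level of 2543 and 2523 ranked 13 among all 59026 matched genes. Its sperm paralogue GAPDHS was listed at 6.55 and 6.67 normalised counts. GAPDH stood 70.4 ± 3.30 times above PFKM in length-normalised level (SD, n = 2).

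The GAPDH locus holds a long non-coding RNA gene, ENSG00000269968, on the opposite strand at 6537794 to 6538370, over the 3-prime end of GAPDH. It was listed at 0 in replicate 1 and at 3265 normalised counts in replicate 2, the latter 4.202% of GAPDH. As the strand setting of the counting is not given in the sources used here, its reads and those of GAPDH cannot be told apart. The sum of both was 79556 and 80955.

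PGK1 (ENSG00000102144; chromosome X, 77910739 to 78129295), whose enzyme makes the first ATP of the pathway, held 27743 and 24712 normalised counts. Its level was 752 and 659, a mean of 705 ± 66.1 (SD, n = 2). PGK2, the testis paralogue, was listed at 0 in both libraries. ENO1 (ENSG00000074800; chromosome 1, 8861000 to 8879190), the ubiquitous enolase that makes phosphoenolpyruvate, held 58128 and 57816 normalised counts and a level of 1236 and 1199, the second highest of the 10.

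ENO1 made up 94.7% ± 0.946 of the enolase level (SD, n = 2). ENO2, the neuronal enolase, followed with a level of 46.3 and 54.2 and ENO3, the muscle enolase, with 13.7 and 22.1, while ENO4 stood at 0.369 and 0.138. ENO2 was above ENO3 in both libraries and on each of the 6 scales tried, but by a factor that depended on the length used, from 1.83 with 200 nt taken from each length to 8.98 with undivided counts.

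PKM (ENSG00000067225; chromosome 15, 72199029 to 72231819) codes for the pyruvate kinase of most tissues. It held 25066 and 25765 normalised counts and a level of 471 and 464. PKLR, the liver and red cell enzyme, was listed at only 1.06 and 2.16 normalised counts. LDHA (ENSG00000134333; chromosome 11, 18394560 to 18408425), which codes for the M subunit of lactate dehydrogenase, held 19149.5 and 15580.3 normalised counts and a level of 406 and 348. LDHA was 1.23-fold higher in replicate 1, the largest difference between the libraries among the 10.

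LDHB, which codes for the H subunit of lactate dehydrogenase, was more abundant than LDHA in both libraries. LDHB had a level of 1015 in replicate 1 and 792 in replicate 2. LDHA was 28.5% and 30.6% of the summed level of the pair, a mean of 29.6% ± 1.42 (SD, n = 2). The ratio of LDHB to LDHA was 2.39 ± 0.163 in length-normalised level, and between 1.70 and 2.95 on the other scales. LDHC, a testis form, reached a level of 2.37 and 1.65.

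**Figure D1:**
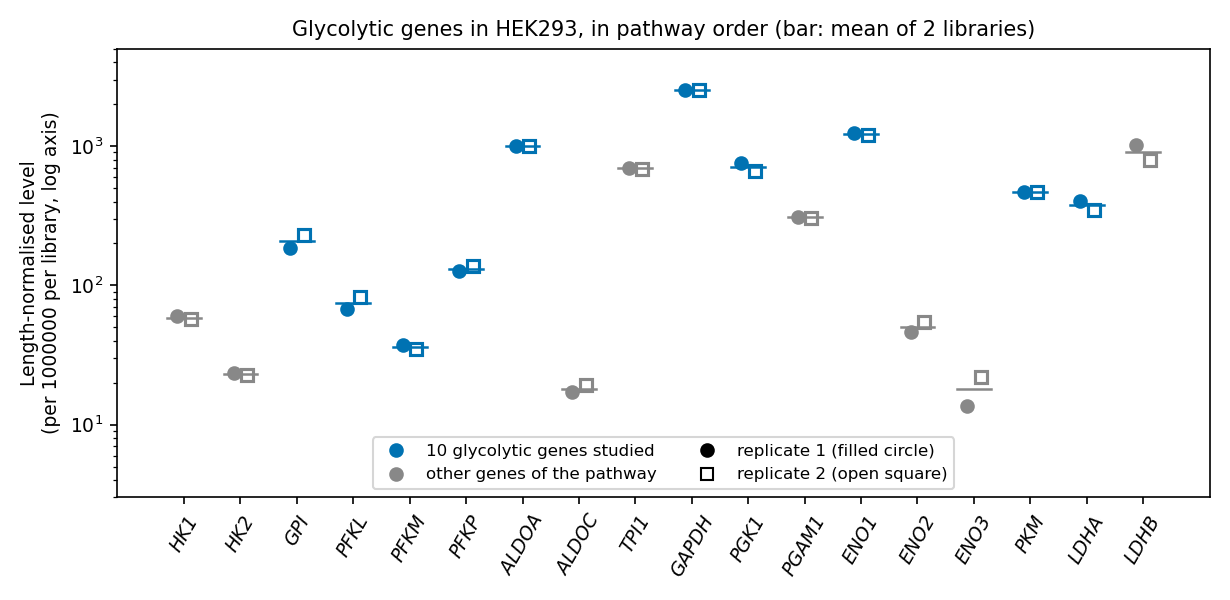
Length-normalised level (log axis, per 1000000 per library) of the 10 glycolytic genes (blue) and of other genes of the pathway (grey), in pathway order from hexokinase to lactate dehydrogenase. Filled circles are replicate 1, open squares replicate 2 and bars their mean. GAPDH has the highest mean, 2533, and PFKM, at 36.0, the lowest of the blue genes, and the circle and square of each blue gene lie close together.

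In length-normalised level the order was GAPDH, ENO1, ALDOA, PGK1, PKM, LDHA, GPI, PFKP, PFKL and PFKM, and all 45 pairs differed by more than the spread. Divided by the length of the canonical transcript instead, all 45 did again, but PGK1 then stood below PKM and LDHA. For PGK1 this length is the 4812 nt of PGK1-201, a model with only 9.03% and 9.05% of the gene's counts. Divided by the canonical coding length, 41 of 45 pairs did, with PGK1 above ALDOA and LDHA above PKM. The 4 pairs that no longer passed were ALDOA with PGK1, ALDOA with LDHA, PGK1 with LDHA, and PKM with LDHA. GPI and the phosphofructokinase genes held positions 7 to 10 on each of these 3 scales.

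**Figure D2:**
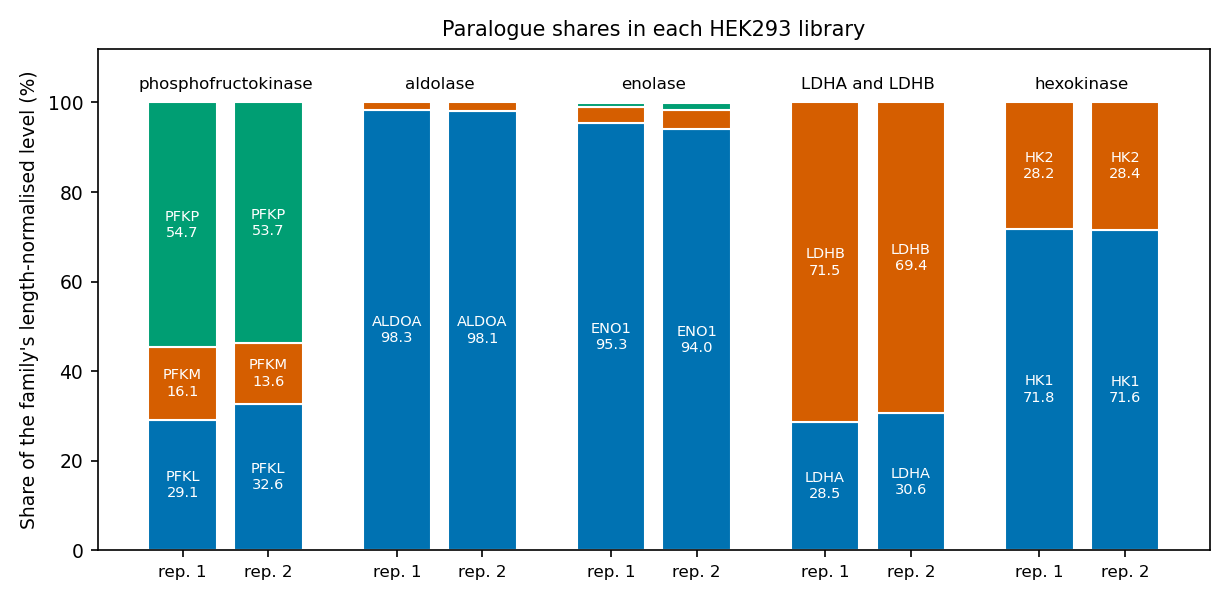
Share of each paralogue in the summed length-normalised level of its family (%), with 1 bar per library; numbers in the bars are percentages. Paralogues with a mean share under 1% are left out, so the narrow orange segments are ALDOC and ENO2 and the narrow green one ENO3. PFKP, ALDOA, ENO1, LDHB and HK1 lead their families in both libraries.

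Of the 12 paralogues of the 10 genes, 6 averaged 10 or more normalised counts. Of these 6, 2 differed by more than 1.5-fold between the libraries. They were ENO4 and LDHC, the lowest of the 6, with means of only 14.3 and 52.1 normalised counts. LDHC was only just over, at 1.56-fold. The remaining steps were read from a list of 25 other genes of glucose metabolism. Of these, 15 averaged 10 or more normalised counts, 5 were lower but above 0 and 5 were listed at 0 in both libraries. None of the 15 differed by more than 1.5-fold between the libraries. Over all 19110 genes with such a mean, which were not matched to these lists for counts, 17.4% did. TPI1, which interconverts the triose phosphates, had a level of 693 and 690. PGAM1, a phosphoglycerate mutase, had 311 and 305. HK1 and HK2, the hexokinases that trap glucose as glucose-6-phosphate, had mean levels of 58.5 ± 1.85 and 23.1 ± 0.576 (SD, n = 2 each), whereas HK3 and HKDC1 were listed at 0. HK1 was 2.53-fold above HK2, or 1.68-fold in undivided counts.

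Summed over its genes, the hexokinase step had a level of 81.6 ± 2.43, the GPI step 208 ± 29.6 and the phosphofructokinase step 243 ± 16.3 (SD, n = 2 each). These were the lowest 3 of the 11 steps from hexokinase to lactate dehydrogenase on this scale and per canonical coding length. Per canonical length, the PGK1 step, with 5450.4 ± 445 normalised counts per 1000 nt, lay below phosphofructokinase with 6412 ± 369 (SD, n = 2 each). The PGK1 value rests on the 4812 nt of PGK1-201, a minor model whose version differs from the listed one. In length-normalised level the highest 3 were the GAPDH step with 2533 ± 14.6, enolase with 1286 ± 14.6 and lactate dehydrogenase with 1283 ± 199.0 (SD, n = 2 each). Enolase and lactate dehydrogenase did not differ beyond their spread.

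Among transporters and regulators, SLC2A1, the widespread glucose transporter, had a level of 24.1 and 29.5. SLC16A1, a lactate transporter, had 78.0 and 63.1, whereas SLC16A3, the form often found in glycolytic cells, had 0.628 and 0.542. PFKFB3, a kinase that makes the phosphofructokinase activator fructose-2,6-bisphosphate, had the highest level of the 4 PFKFB genes, 22.1 and 25.1. The gluconeogenic gene FBP1 was listed at 2.12 and 2.78 normalised counts and FBP2 at 0. Other gluconeogenic genes of the list were higher, with PCK2 at 1441 and 1432, PC at 321 and 387 and PCK1 at 79.3 and 75.1. G6PC1 was listed at 0 and 2.78.

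PKM transcripts carried exon 10, shown above, far more often than exon 9. Of the 23 listed PKM transcripts, 3 contain exon 10 alone and 5 exon 9 alone. The exon 10 transcripts held 20728 and 22587 normalised counts. The exon 9 transcripts held 695 and 682.

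Replicate 1 had 20247 rounded estimated counts in the exon 9 and exon 10 classes together, and 96.8% of them were exon 10 (95% exact interval 96.5 to 97.0%). Replicate 2 had 25093, with 97.1% exon 10 (interval 96.9 to 97.3%). The mean share was 96.9% ± 0.223 (SD, n = 2). Such intervals cover counting error only. The exon 10 transcripts were 29.8 and 33.1 times as abundant as the exon 9 transcripts. Nearly all of the former was PKM-202 (ENST00000335181.9), with 20268.5 and 22518 normalised counts. The exon 9 class was not carried by the same transcripts throughout, since PKM-201 was listed at 0 in replicate 1 and at 128 in replicate 2.

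The other PKM transcripts could not be placed by these exons. A group of 3 holds an exon that spans either or both of them, and 12 hold neither, and these 12 made up 11.98% of PKM in replicate 1 and 7.21% in replicate 2. PTBP1, HNRNPA1 and HNRNPA2B1, which are known to repress exon 9, had mean levels of 149 ± 21.0, 390 ± 32.0 and 100.3 ± 20.8, and SRSF3, known to promote exon 10, had 134 ± 14.7 (SD, n = 2 each).

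The leading transcript, the one with most normalised counts of its gene, was the same in both libraries for all 10 genes, against 78.5% of the 16735 genes with several transcripts and at least 1 normalised count in both. These genes too were not matched to the 10 for counts. For 7 of the 10 it held at least 70% of the gene on average. The share of all genes that reach 70% was not computed, so this count is not a trait of glycolytic genes. The highest mean shares were those of ENO1-201, with 95.7% and 98.0%, and PFKP-203, with 96.1% and 95.3%, whose order differed between the libraries. PFKL-201 followed with 91.0% and 89.6%. GPI-201 held 90.9% and 85.2%, and PKM-202 80.9% and 87.4%.

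**Figure D3:**
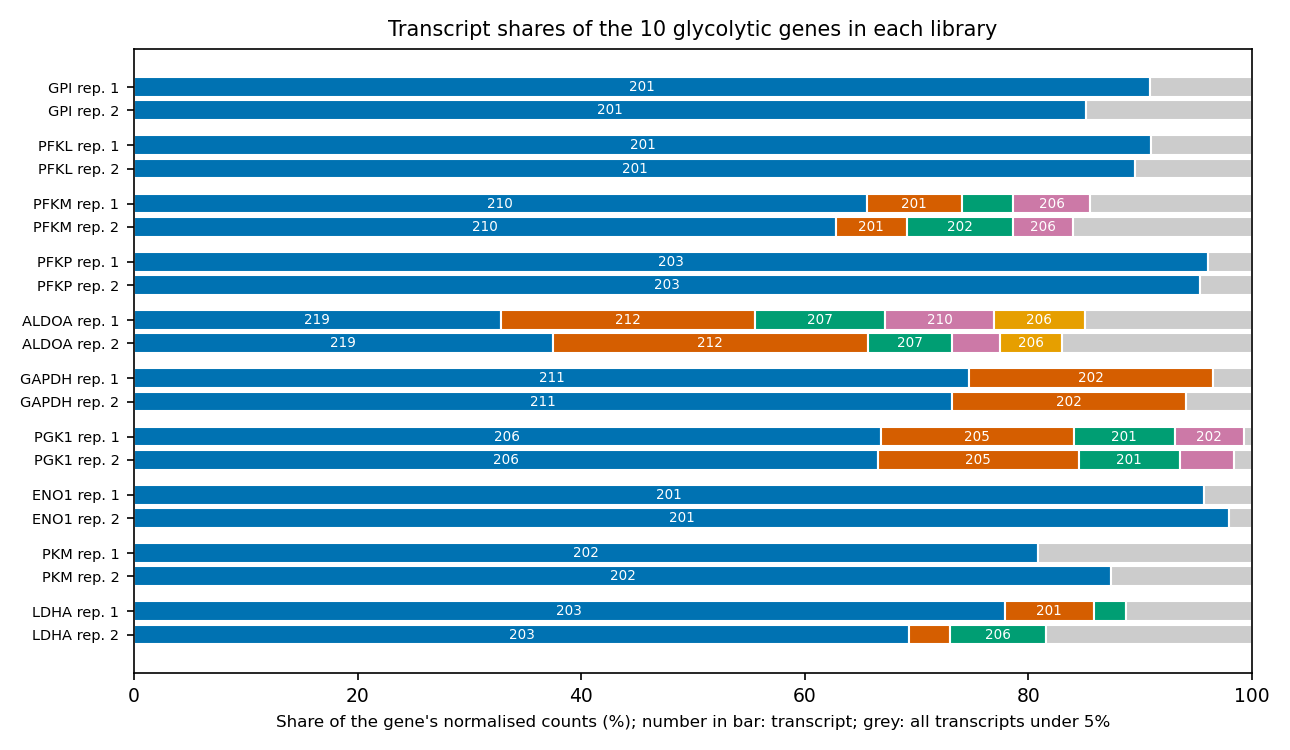
Share of the normalised counts of each gene (%) held by each transcript, with 1 bar per gene and library. Coloured segments are the 23 transcripts that averaged 5% or more, numbered as in their GENCODE names, and grey is the sum of all others. The leading transcript, in blue, is the same in both libraries for each gene, and ALDOA is the most divided.

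The leader was the canonical transcript of GENCODE v44, the model chosen to represent a gene, in 5 of the 10 genes. Among all genes with the same leader in both libraries and a listed canonical transcript this share was 61.2%. In PFKM, ALDOA, GAPDH and LDHA the canonical transcript was listed at under 1% of the gene in each library. The share of all genes for which this holds was not computed. PFKM-203, ALDOA-218, GAPDH-201, LDHA-205 and PGK1-201 all have another version in GENCODE v44 than the listed one. The lengths, starts and proteins given for them may therefore not be those the authors counted on. PFKM-203 and ALDOA-218 were listed at 0 in both. From counting error alone, a 0 allows up to 0.118% of PFKM and 0.0129% of ALDOA in replicate 1. These limits do not cover shared reads that were assigned to other transcripts of the gene, so the true shares may be higher. GPI-205, for example, was listed at 0 in replicate 1, with a limit of 0.0169% of GPI, but held 7.72% in replicate 2. GAPDH-201 held 0.118% and 0.115%, LDHA-205 held 0.177% and 0.427%, and PGK1-201 held 9.03% and 9.05%.

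GAPDH counts went mostly to GAPDH-211 (ENST00000619601.1), a model of 1086 nt with a coding sequence for 293 amino acids, which held 74.7% and 73.2%. The canonical GAPDH-201 has 335. GAPDH-211 begins at chr12:6536605, on the ATG that is codon 43 of GAPDH-201, and 1083 of its bases match GAPDH-201 without a break. Its first 30 bases, with this ATG in capitals, are shown because they lie whole within GAPDH-201.
GAPDH-211 start: ATGgtttacatgttccaatatgattccacc
Only 3 of the 1037 words of 50 nt in GAPDH-211 are absent from GAPDH-201, whereas 202 of the 1236 words of GAPDH-201 are absent from GAPDH-211. Those 3 words come from 3 bases by which GAPDH-211 runs beyond the 3-prime end of GAPDH-201. The share of GAPDH-211 thus does not show where transcription begins or which protein is made. GAPDH-202, with a protein of 260 amino acids, took a further 21.7% and 20.9% and has 48 words of 1217 that no other listed GAPDH transcript holds. GAPDH-201 has another version in GENCODE v44 than in the tables.

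LDHA counts went mostly to LDHA-203 (ENST00000379412.9), with 77.9% and 69.4%. Its model starts at chr11:18396278, 1715 bases after that of LDHA-205, and its protein of 361 amino acids is longer than the canonical 332. Of its words of 50 nt, 200 of 1873 are in no other listed LDHA transcript. LDHA-201 held 7.99% and 3.66%, whereas LDHA-206 held 2.86% and 8.56%, so the order of these minor transcripts differed between the libraries.

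PGK1-206 (ENST00000644362.1) led PGK1 with 66.8% and 66.5%. Its first exon lies 193509 bases before that of PGK1-201 and only 49 bases after the start of ATP7A, and its protein has 389 amino acids against 417. It holds 92 words of 2356 of its own, and 2502 of the 4763 words of PGK1-201 are absent from it. PGK1-201 has another version in GENCODE v44 than the listed one. These starts are those of the models, and estimated counts do not show where transcription begins. PGK1-205 and PGK1-202, for which no coding sequence is defined, held 17.3% and 18.0%, and 6.19% and 4.81%. In length-normalised levels PGK1-206 led with a mean of 37.5% and PGK1-205 followed with 34.0%, as the latter has only 702 nt.

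In PFKM, the gene with most listed transcripts (32), PFKM-210 led with 65.5% and 62.8%. It has the same coding intervals as the canonical PFKM-203, for 780 amino acids, but starts 3283 bases later. PFKM-201, PFKM-202 and PFKM-206 had mean shares of 7.41%, 7.07% and 6.15%. PFKM-202 codes for 851 amino acids and PFKM-206 is annotated as a retained intron.

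ALDOA was the most divided of the genes, with 5 transcripts above a mean share of 5%. ALDOA-219, with a protein of 364 amino acids, led with 32.8% and 37.4%, and ALDOA-212, a retained-intron model of 801 nt, followed with 22.7% and 28.2%. ALDOA-219 has 0 words of 1437 of its own, and ALDOA-212 has 37 of 752, so this division is uncertain. ALDOA-219 also has another version in GENCODE v44 than the listed one. ALDOA-207, ALDOA-210 and ALDOA-206 had mean shares of 9.63%, 6.98% and 6.82%. In length-normalised levels the order at the top was turned round, with 29.7% for ALDOA-212 and 22.1% for ALDOA-219. This was the only one of the 10 genes whose leader changed with the scale.

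Of the normalised counts of the 10 genes, 90.7% ± 0.0544 fell on protein-coding models, and on retained-intron models 5.65% ± 0.362 (SD, n = 2 each). Across all protein-coding genes these shares were 84.8% ± 0.146 and 6.71% ± 0.163. Such pooled shares weigh genes by their counts. GAPDH and ENO1, the highest of the 10 in counts, had protein-coding shares of 98.4% and 97.0%, whereas PGK1, with 75.7%, and ALDOA lay below 84.8%. The protein-coding share ranged from 68.3% ± 3.79 in ALDOA to 99.0% ± 0.0663 in PFKP. Retained-intron models made up the other 31.7% of ALDOA, a share that depends on how RSEM divides shared reads, as given above. Transcripts annotated for nonsense-mediated decay had their highest mean share in LDHA, at 3.88% and 10.99%, although PKM was higher in replicate 1 with 4.08%, against 1.65% in replicate 2.

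Single transcripts agreed much less between the libraries than the gene sums. Of the 113 transcripts of the 10 genes that averaged 10 or more normalised counts, 51 (45.1%) differed by more than 1.5-fold, and across all 67167 such transcripts 48.8% did. At 0 in 1 library were 13 of the 113 (11.5%), against 9.11% of all. Shares near these were thus seen throughout the tables.

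The highest of these 13 were GPI-205, LDHA-222 and ENO1-209. GPI-205 was listed at 0 in replicate 1 and at 1566 normalised counts in replicate 2, and LDHA-222 at 0 and 1304. ENO1-209 went the other way, with 1312 and 0. GPI-205 has 40 words of 50 nt of 1525 that are in no other listed transcript of its gene, ENO1-209 has 65 of 556, and LDHA-222 has none of 1291. The share of LDHA for nonsense-mediated decay in replicate 2 came mostly from LDHA-222, which made up 8.37% of the gene there.

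**Figure D4:**
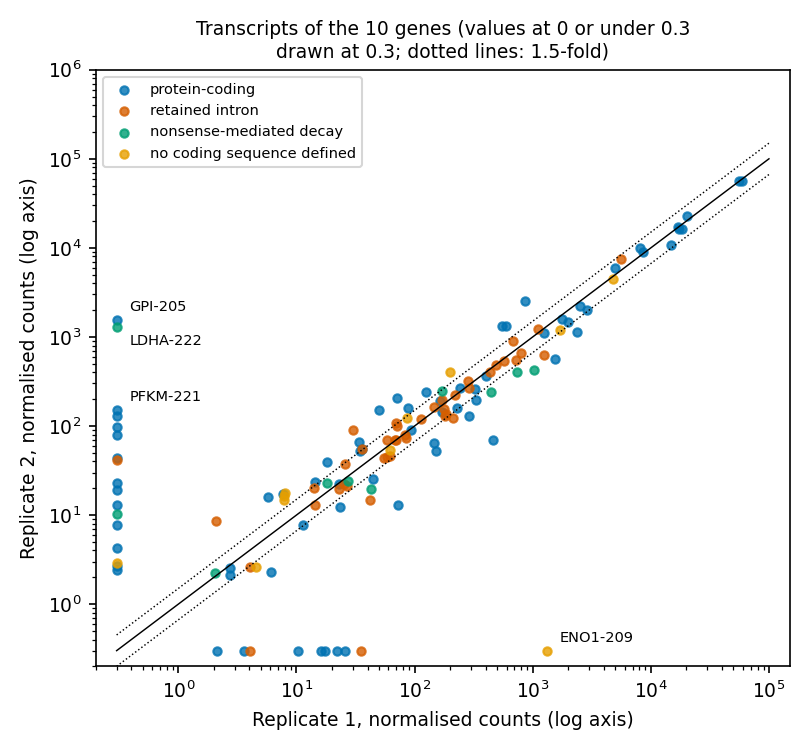
Normalised counts of each transcript of the 10 genes in replicate 1 (x) and replicate 2 (y), both on log axes, coloured by annotated type; transcripts at 0 in both libraries are left out and values under 0.3 are drawn at 0.3. The solid line marks equal values and the dotted lines a 1.5-fold difference. The 11 transcripts averaging at least 5000 normalised counts lie between the dotted lines, but lower ones such as GAPDH-204, at 853 and 2560, do not, and GPI-205, LDHA-222 and PFKM-221 at the left edge and ENO1-209 at the bottom are listed at 0 in 1 library.

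Processed pseudogenes can take reads from their parent genes. GAPDH has 65 pseudogenes named after it, of which 33 were above 0, with 1528 and 1852 normalised counts in all, or 1.92% and 2.38% of GAPDH. The highest was GAPDHP65, with 521 and 503. The 6 LDHA pseudogenes held 1.88% and 1.66% of LDHA, led by LDHAP7, whereas those of ALDOA, PGK1, ENO1 and PKM held under 1% of their parents. None was found by name for GPI or the phosphofructokinase genes.

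Promoter windows from RefSeq (GRCh38.p14), 250 bases before to 50 after each start, were searched for ACGTG on both strands, the core of the element bound by hypoxia-inducible factors and part of the E-box CACGTG. RefSeq gave 22 windows for the 10 genes, of which 10 (45.5%) in 7 genes held a match, against 21.4% of 35116 windows in all. Some windows overlap, also among those with a match in PFKM and in ALDOA, so a site can count more than once. The windows were not matched for base composition, and whether the 10 genes are enriched for matches was not tested. LDHA and PGK1 are textbook targets of these factors, so their sequences before the first GENCODE start of the window are shown, on the plus strand, with matches in capitals. The stretches are chr11:18394313-18394559 for LDHA, with 5 matches counted over both strands of which 2 pairs form CACGTG, and chrX:78103998-78104247 for PGK1, with 2.
LDHA upstream: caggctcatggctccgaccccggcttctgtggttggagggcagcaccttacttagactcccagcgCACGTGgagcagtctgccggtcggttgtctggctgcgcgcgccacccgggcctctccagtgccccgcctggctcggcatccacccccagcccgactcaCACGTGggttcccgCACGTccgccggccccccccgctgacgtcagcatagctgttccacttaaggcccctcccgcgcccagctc
PGK1 upstream: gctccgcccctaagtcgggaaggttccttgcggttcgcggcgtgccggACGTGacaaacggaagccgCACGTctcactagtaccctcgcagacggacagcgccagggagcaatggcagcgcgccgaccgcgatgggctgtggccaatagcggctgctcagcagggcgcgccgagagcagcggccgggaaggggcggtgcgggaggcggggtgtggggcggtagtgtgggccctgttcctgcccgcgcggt
The models of the leading LDHA and PGK1 transcripts do not start at these positions, as given above, but the starts used by the cells were not measured. The start of LDHA-203 lies in another RefSeq window, chr11:18396101-18396400, which held 0 matches. No condition in these data bears on the factors.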

How the data were processed

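Total RNA was depleted of ribosomal RNA and made into TruSeq libraries. The authors deposited 1 table of all transcripts per library, with estimated counts that RSEM divides between transcripts sharing reads, and a normalised signal (EB-Seq-Normalised in the file headers), obtained by dividing the former by a size factor, 0.945 in replicate 1 and 1.08 in replicate 2. The submitters' processing notes name FastQC, STAR 2.7.0d, RSEM 1.3.3 and R 3.6.3; whether counting used strand is not given in the sources used here. Separate METTL8 tables were left out.

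Transcript versions were dropped to match GENCODE v44 (GRCh38). This covered 202217 transcripts and 96.9% and 96.8% of the counts; of the 175 used here, 18 had another version, among them 5 of the 10 leading transcripts. Sums, shares and exact (Clopper-Pearson) intervals were computed with Python 3.11.15, pandas 2.3.3 and SciPy 1.17.1. The calls of leading transcripts and of 1.5-fold differences were tested on simulated data. Those counts were drawn separately for each transcript, and leaders were called at a higher minimum count per gene than here. As no reads were shared in it, the simulation says nothing about errors in dividing reads between transcripts. RSEM divides reads by a model, so shares of transcripts with few own words are less certain than gene sums.

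The members and gene lists were chosen with earlier results of these data known. Named were the 10 genes, their paralogues, 25 other pathway genes, 4 factors that act on PKM splicing, marker genes, and transcripts averaging 5% or more of their gene; GPI-205, LDHA-222, ENO1-209, GAPDH-204, PFKM-221, PKM-201, LDHA-205, ALDOA-218, PFKM-203, GAPDH-201 and ENSG00000269968 were picked once their values had been seen. Settings varied were single libraries, other lengths, protein-coding transcripts only, filters and other totals. Some genes of these lists are not reported here.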

Additional observations from a re-analysis of the deposited data

How the results depend on the processing

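No paired analysis was possible because the libraries form 1 group. With 2 libraries, leaving either out moves a mean by less than 1 SD by construction and says nothing about stability. Of 35 other alternatives over 9 results, 15 stayed within the spread between the libraries (for counts, within 1.5-fold) and 20 did not. None of these 9 results was reversed. The order of neighbouring genes by level did change with the length used, as given in the report. The cause of these shifts was not tested beyond what each setting changes by construction.

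Without division by length, PFKP was 51.6% of the phosphofructokinase genes, ALDOA 97.0% of the aldolases and LDHA 36.9% of LDHA and LDHB. With canonical lengths, ALDOA was 97.0%, ENO1 95.7% of the enolases and LDHA 25.4%. With canonical coding lengths, chosen after the data were seen like the addition of pseudogenes, PFKP was 51.5%, ALDOA 96.6% and LDHA 37.0%. With 200 nt taken from each length, ALDOA was 98.5%. With protein-coding transcripts only, PFKP was 56.6%, ALDOA 97.2%, LDHA 25.8% and the 10 genes 1.47% of the counts. The 10 genes were 1.25% without misc_RNA, ribozyme and snRNA transcripts and 0.675% in length-normalised levels. The PKM exon 10 share was 96.4% in length-normalised levels and 97.3% with transcripts at 1 or more in both libraries. The protein-coding share was 83.5% and 91.1% in these settings.

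Each of the 10 genes had at least 2499 normalised counts per library.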
